A study of Mus musculus with 56 samples.

Results

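The wheel effect was examined in gastrocnemius muscle of female mice labelled as lacking HuR in skeletal muscle (HuRm-/-). Members were chosen by column name, which gave 7 mice with a running wheel (FHE) and 7 mice with a locked wheel (FH), 14 of the 56 mice sequenced. HuR, encoded by Elavl1, is an RNA-binding protein of AU-rich transcripts, and the floxed gene was recombined by Cre under the Myl1 (Mlc1f) promoter, which is active in skeletal muscle fibres, so other cells of the muscle keep the gene. Both groups shared genotype, sex, C57Bl/6 background and an age of 5 months, and differed in whether the wheel turned from week 10 to week 20 of age, that is, for 10 weeks. The other groups, also of 7 mice each, were female floxed littermate controls with a locked (FC) or running (FCE) wheel, and males of both genotypes with a locked (MH for HuRm-/-, MC for controls) or running (MHE, MCE) wheel.

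Voluntary running is known to raise the oxidative capacity of limb muscle. The coactivators PGC-1α and PGC-1β, encoded by Ppargc1a and Ppargc1b, turn on genes of mitochondria, fat oxidation and blood vessel growth, and fast fibres can exchange the myosin of type IIb fibres (Myh4) for those of type IIx (Myh1) and IIa (Myh2). Mitochondria also carry a small genome of their own, whose long transcripts are cut at the tRNAs into messenger and ribosomal RNAs, while cytosolic ribosomes are built with a set of nuclear-encoded proteins.

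The depth was 7889427 to 15963607 counts per mouse in FH and 12149855 to 16690059 in FHE. Counts of any pair of mice in a group differed by more than sampling noise (a chi-square statistic of at least 7.82 times its degrees of freedom in FH and 6.54 in FHE), so every mouse was 1 replicate. The mean correlation of a mouse with the rest of its group, on log2 CPM across genes, was 0.954 to 0.9604 in FHE and 0.9204 to 0.943 in FH. CPM is the count of a gene per 1000000 counts after TMM scaling. The lowest correlation belonged to FH mouse 34, which stood apart at several transcripts named below. Where a call of FHE minus FH named below was lost without it, the adjusted p without it is given. Genes named after their values were seen have no such value. Elavl1 had a median of 47.9 CPM in FH (37.9 to 62.3), 52.8 in FHE (49.2 to 62.5) and 44.5 in FC (38.9 to 48.2). The counts of Elavl1 therefore did not separate the genotypes. A count over the whole gene does not show whether the deleted part was read, so it does not check the labels, from which the genotype is taken. Myl1, at whose promoter Cre is driven, was at 4812 to 13359.8 CPM in FH (median 5475), 3921 to 8477 in FHE (median 5021) and 8673 to 9837 in FC (median 9679). FH mouse 34 was above every FC mouse and FH mouse 31 (9794) inside the FC range. FH mouse 30 (8395), FHE mouse 7 (8477) and FHE mouse 10 (8213) were just below that range. The genotype of the mice labelled FH 31 and FH 34 was not tested by any value here, so the results that change without both are given after the gene lists. Its wheel difference was -0.29 ± 0.23 (log2, SE), with a limma adjusted p of 0.539.

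Running and locked wheels differed at 551 of 14321 genes tested, or 3.85%, at a limma adjusted p of 0.05 or less, which defines a called gene here. Of these, 293 were higher in FHE (2.05% of genes tested) and 258 were lower (1.8%). Most changes were small, with a median size of 0.40 on the log2 scale, and 119 called genes reached 1.5-fold. The 7 FHE and 7 FH values did not overlap for 105 called genes, 37 higher and 68 lower, while 0.796% of all genes had no overlap, called or not. Whether a difference in bulk muscle came from fewer cells of a type or from less RNA per cell cannot be told apart. Without FH mouse 34, 451 genes were called.

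**Figure D1:**
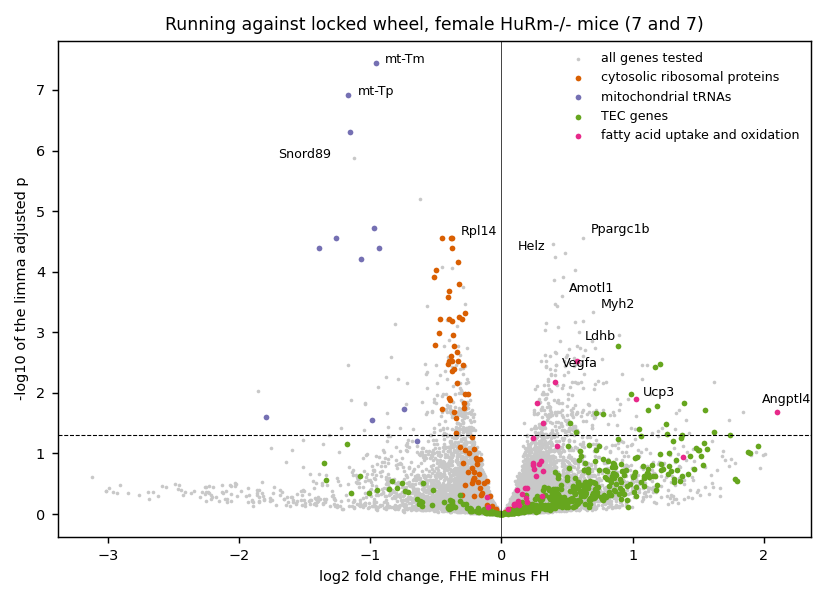
Log2 fold change (FHE minus FH) against -log10 of the limma adjusted p for all genes tested, with members of 4 gene groups coloured and a line at an adjusted p of 0.05. Mitochondrial tRNAs and ribosomal protein genes lie to the left and most TEC genes to the right.

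Regulators of mitochondrial content were among the rises. Ppargc1b had 16.99 to 27.7 CPM in FH (median 23.2) and 29.4 to 43.98 in FHE (median 34.4), so that every running mouse lay above every locked one. Its log2 difference was 0.62 ± 0.094 (SE; limma adjusted p = 2.82e-05). Ppargc1a, the related coactivator that responds to muscle contraction, went from 32.2 to 41.1 CPM in FH (median 36.1) to 42.2 to 58.9 in FHE (median 45.2), again without overlap, a rise of 0.36 ± 0.098 (adjusted p = 0.0245). The call of Ppargc1b held whichever mouse was left out, and in fits that each left out 1 mouse that of Ppargc1a was lost in 3 of 14 such fits (FH mouse 14 and FHE mice 3 and 7, adjusted p of up to 0.0723). Gabpa, a subunit of the transcription factor NRF-2 that acts on respiratory chain genes, differed by 0.50 ± 0.14 (adjusted p = 0.0234). It was at 5.41 CPM in FH mouse 34 and at 9.76 or more in the other FH mice, and without that mouse the difference was 0.33 with an adjusted p of 0.136. Of 18 genes in the list of PGC-1 and mitochondrial regulators these 3 were called, none was lower, and 14 differences were positive. The list median was 0.14, beside 0.02 over all genes tested.

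Genes of fatty acid uptake and oxidation were mostly higher with running. Of 31 list members, 6 were called, all higher, 29 differences were positive and the median was 0.24. Lpl, the lipase that frees fatty acids from circulating triglyceride, had 481 to 743 CPM in FH (median 571) and 663 to 1082 in FHE (median 959), a rise of 0.58 ± 0.12 (limma adjusted p = 0.00302). Angptl4, a secreted inhibitor of that lipase and a target of fatty acid sensing nuclear receptors, had the largest log2 difference of all called genes. Its levels were 0.609 to 4.27 CPM in FH (median 2.01) and 2.76 to 15.4 in FHE (median 10.6), a difference of 2.10 ± 0.56 (adjusted p = 0.020995). Ucp3, a mitochondrial carrier induced by fatty acids, went from 13.5 to 31.2 CPM (median 17.5) to 16.3 to 56.2 (median 48.9), a difference of 1.03 ± 0.26 (adjusted p = 0.0128). FHE mice 21 and 22 were the lowest of their group for both genes and fell within the FH range, whereas the other 5 lay above every FH mouse. Without FH mouse 34 the adjusted p was 0.0645 for Angptl4 and 0.0371 for Ucp3. The β-oxidation enzymes Hadhb (0.41 ± 0.095, adjusted p = 0.00673), Hadh (0.32 ± 0.090, 0.03196) and Eci1 (0.27 ± 0.070, 0.0148) were also called, and Hadh lost its call, with 1 mouse left out at a time, in 7 of 14 such fits (adjusted p of up to 0.0934, and 0.0886 without FH mouse 34). The fatty acid transporter Cd36 differed by 0.09 ± 0.11 (adjusted p = 0.706).

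**Figure D2:**
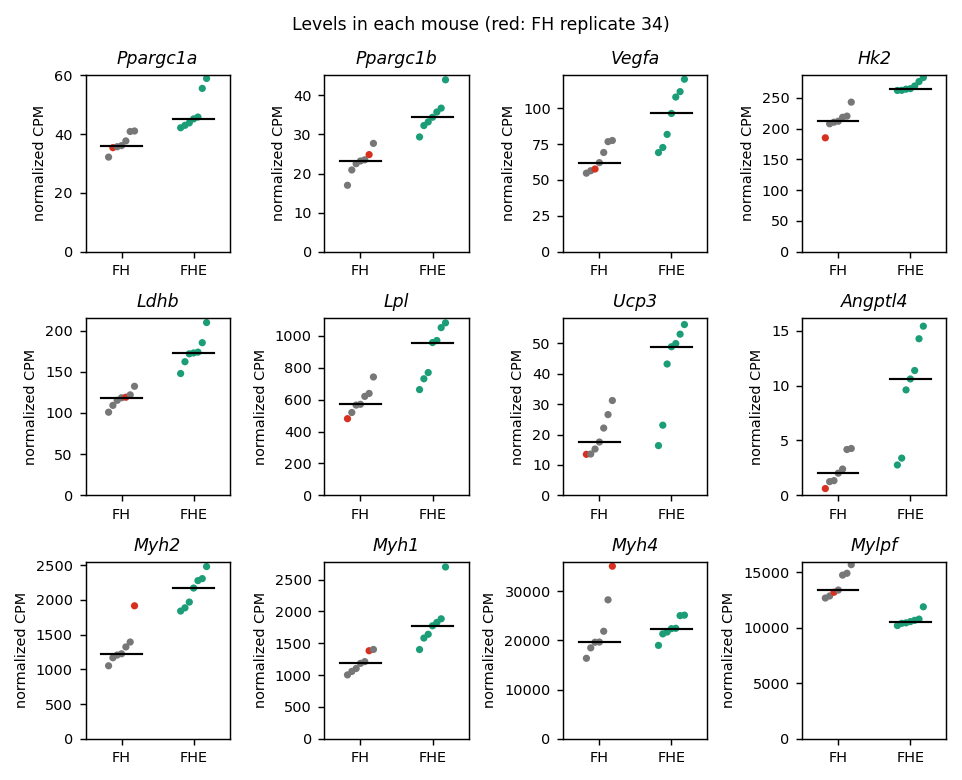
Normalized CPM of 12 genes in each of the 7 FH and 7 FHE mice, each point 1 mouse and each bar the median, with FH mouse 34 in red and axes from 0. Ppargc1b and Hk2 do not overlap between the groups, while Myh4 does.

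In the citric acid cycle 4 of 15 genes were called and all were higher, with a list median of 0.12. Cs, citrate synthase, which catalyses the entry step of the cycle, had 86.6 to 190.2 CPM in FH (median 184) and 196 to 233 in FHE (median 205), without overlap. The lowest value was that of FH mouse 34, and the other FH mice had 174 CPM or more. The difference was 0.36 ± 0.087 (limma adjusted p = 0.00868) with that mouse and 0.20 (0.0187) without it. Idh2 (0.43 ± 0.12, adjusted p = 0.0303), Ogdh (0.34 ± 0.084, 0.0106) and Suclg2 (0.62 ± 0.16, 0.0208) act at later steps. With 1 mouse left out at a time, the call was lost in 2 of 14 such fits (FH mouse 34 and FHE mouse 7, adjusted p of up to 0.114 without FH mouse 34) for Suclg2 and 5 of 14 such fits (FH mice 14 and 19 and FHE mice 3, 10 and 21, adjusted p of up to 0.0735) for Idh2.

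Glucose handling genes moved in either direction. Of 20 tested, 3 were higher and 2 lower, and the median was 0.00. Hk2, the hexokinase that traps glucose in muscle, rose from 185 to 243 CPM (median 212) to 262 to 283 (median 265) without overlap, by 0.33 ± 0.065 (limma adjusted p = 0.000905). Ldhb, the lactate dehydrogenase subunit typical of oxidative muscle, rose from 101 to 132 CPM (median 118) to 148 to 209.9 (median 173) without overlap, by 0.58 ± 0.12 (adjusted p = 0.00166). Pfkfb3, which makes an activator of phosphofructokinase, rose by 0.51 ± 0.15 (adjusted p = 0.03305). Aldoa, the muscle aldolase, differed by -0.29 ± 0.079 (adjusted p = 0.0264), and Fbp2, the muscle fructose bisphosphatase, by -0.54 ± 0.16 (0.0488), and with 1 mouse left out at a time the call was lost in 6 of 14 such fits (FH mice 13, 19, 30 and 31 and FHE mice 2 and 10, adjusted p of up to 0.111) for Pfkfb3, 5 of 14 such fits (FH mouse 34 and FHE mice 2, 3, 7 and 8, adjusted p of up to 0.1098 without FH mouse 34) for Aldoa and 9 of 14 such fits (adjusted p of up to 0.132 without FH mouse 34) for Fbp2. The glucose transporters Slc2a4 and Slc2a1 differed by -0.01 ± 0.090 (adjusted p = 0.978) and -0.25 ± 0.16 (0.435). Phkg1, the catalytic subunit of phosphorylase kinase, was the 1 gene called of 16 in glycogen synthesis and breakdown, and rose by 0.33 ± 0.070 (adjusted p = 0.00236). Glycogen synthase, Gys1, differed by 0.21 ± 0.12 (adjusted p = 0.346) and the branching enzyme, Gbe1, by -0.03 ± 0.12 (0.937). None of 11 pyruvate dehydrogenase genes was called. Its subunits Pdha1 and Pdhb differed by 0.12 ± 0.081 (adjusted p = 0.475) and 0.11 ± 0.077 (0.4896). Pdk4, a kinase that switches the complex off and was named after its values were seen, had 3.45 to 79.7 CPM in FH and 33.5 to 205 in FHE, a difference of 1.38 ± 0.50 (0.114).

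Respiratory chain genes were called in either direction. Of 79 nuclear-encoded subunits, 3 were called higher and 8 lower, and the list median was -0.04. Ndufa2, an accessory subunit of complex I, had 407 to 532 CPM in FH (median 468) and 362 to 397 in FHE (median 375), without overlap, a difference of -0.30 ± 0.052 (limma adjusted p = 0.000181). Cox6c of complex IV differed by -0.29 ± 0.065 (adjusted p = 0.00394), Ndufb2 of complex I by -0.28 ± 0.076 (0.0212) and Ndufb4, also of complex I, by -0.34 ± 0.096 (0.0311). Sdhc of complex II differed by 0.35 ± 0.096 (adjusted p = 0.02301) and Atp5g3 of the ATP synthase by 0.29 ± 0.072 (0.0128). FH mouse 34 stood at 87.1 CPM for Sdhc, against 137 or more in the other FH mice. Without it the adjusted p was 0.116 for Sdhc and 0.05196 for Atp5g3, and 1 subunit was called higher and 4 lower. With FH mice 13 and 34 both left out, 17 were lower and 0 higher. With 1 mouse left out at a time, the call was lost in 4 of 14 such fits (FH mouse 14 and FHE mice 2, 10 and 21, adjusted p of up to 0.0666) for Ndufb2, 7 of 14 such fits (adjusted p of up to 0.0963, and 0.0535 without FH mouse 34) for Ndufb4 and 4 of 14 such fits (FH mice 13 and 34 and FHE mice 3 and 8, adjusted p of up to 0.116 without FH mouse 34) for Sdhc. Ndufa1, at 57.6 CPM in FH mouse 34 and 151 or more in the others, differed by 0.14 ± 0.14 (adjusted p = 0.639). Of 8 mitochondrially encoded subunits 1 was called, mt-Nd5 of complex I, with 3468 to 4304 CPM in FH and 2457 to 3539.6 in FHE (-0.38 ± 0.063, adjusted p = 8.75e-05). The genes mt-Nd1 and mt-Nd2 differed by -0.14 ± 0.080 (adjusted p = 0.366) and -0.14 ± 0.11 (0.546).

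Fast fibre genes had calls in both directions. Of 14 list members, 2 heavy chains were called higher and 5 smaller proteins lower. Myh2, the type IIa myosin heavy chain, had 1051 to 1914 CPM in FH (median 1224) and 1839 to 2479 in FHE (median 2170.1). It rose by 0.70 ± 0.13 (limma adjusted p = 0.000454), and by 0.79 (9.27e-05) without FH mouse 34, the one FH mouse inside the FHE range. Myh1, the type IIx heavy chain, went from 1003 to 1402 CPM (median 1184) to 1401 to 2697 (median 1774), a rise of 0.60 ± 0.12 (adjusted p = 0.001801). Myh4, the type IIb heavy chain, was at 16362 to 35089 CPM in FH and 18989.9 to 25134 in FHE, a difference of 0.02 ± 0.098 (adjusted p = 0.957). The exonic lengths of these 3 neighbouring genes are 6353 bases for Myh1, 7137 for Myh2 and 6016 for Myh4. Mylpf, the fast regulatory light chain, was at 12692 to 15704 CPM in FH and 10208 to 11902 in FHE, without overlap, a difference of -0.38 ± 0.080 (adjusted p = 0.00302). Myoz1, a Z-disc protein (-0.32 ± 0.071, adjusted p = 0.00405), the fast troponins Tnni2 (-0.27 ± 0.074, 0.0254) and Tnnt3 (-0.22 ± 0.067, 0.0408), and Pvalb, the calcium buffer parvalbumin (-0.26 ± 0.079, 0.0447), were also lower. With 1 mouse left out at a time, the call was lost in 3 of 14 such fits (FH mice 14 and 17 and FHE mouse 2, adjusted p of up to 0.0673) for Tnni2 and 10 of 14 such fits (adjusted p of up to 0.118 without FH mouse 34) for Pvalb. Without FH mouse 34, 5 fast fibre genes were called, and Tnnt3 was not among them. It also lost its call without FH mice 31 and 34. No gene was called among 14 of the slow fibre list, where the heavy chain Myh7 differed by 0.08 ± 0.19 (adjusted p = 0.874) and the light chain Myl2 by -0.02 ± 0.20 (0.978).

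Single members were called in several other lists. The share called was 4.35% of capillary, 4.35% of immediate early and 4.17% of chaperone genes, near the 3.85% of all genes tested. It was 9.09% of myokine, 10.5% of clock and 10% of polyamine genes, from 1 or 2 members each. Vegfa, a vascular growth factor, had 54.7 to 77.5 CPM in FH (median 62.03) and 69.04 to 120.1 in FHE (median 96.3), a rise of 0.52 ± 0.11 (limma adjusted p = 0.00189). It was the 1 of 23 capillary genes and the 1 of 11 myokine genes called. Vegfb differed by 0.08 ± 0.079 (adjusted p = 0.665), and the myokines Fndc5 and Il15 by 0.39 ± 0.12 (0.05001, just above the threshold) and -0.16 ± 0.13 (0.561). In the circadian clock list 2 of 19 genes were higher, Arntl, which encodes the activator BMAL1 (0.88 ± 0.25, adjusted p = 0.0338), and Nfil3, a repressor of clock output genes (0.85 ± 0.23, 0.0206). Arntl was at 2.23 CPM in FH mouse 34 and 7.897 or more in the other FH mice, and without that mouse its difference was 0.46 with an adjusted p of 0.225. Clock differed by 0.14 ± 0.098 (adjusted p = 0.4803). Klf4, a transcription factor and the 1 called of 23 immediate early genes, was at 38.7 to 48.7 CPM in FH and 25.6 to 35.9 in FHE without overlap (-0.51 ± 0.15, adjusted p = 0.0381), while Fos and Fosb differed by 0.38 ± 0.30 (0.557) and 0.58 ± 0.42 (0.496). Dnaja1, a co-chaperone and the 1 called of 24 chaperone genes, differed by -0.42 ± 0.13 (adjusted p = 0.0469), and the heat shock genes Hspa1a and Hspa1b by -0.13 ± 0.40 (0.912) and -0.59 ± 0.49 (0.572). Oaz1, an antizyme that restrains polyamine synthesis and the 1 called of 10 polyamine genes, was at 63.5 to 91.2 CPM in FH and 53.8 to 58.2 in FHE, without overlap (-0.40 ± 0.10, adjusted p = 0.0186). The synthetic enzymes Odc1 and Amd1 differed by -0.26 ± 0.31 (adjusted p = 0.721) and 0.09 ± 0.25 (0.888). With 1 mouse left out at a time, the call was lost in 5 of 14 such fits (FH mice 31 and 34 and FHE mice 2, 8 and 10, adjusted p of up to 0.225 without FH mouse 34) for Arntl, 2 of 14 such fits (FH mouse 31 and FHE mouse 2, adjusted p of up to 0.0568) for Nfil3, 7 of 14 such fits (adjusted p of up to 0.0801, and 0.0572 without FH mouse 34) for Klf4, 12 of 14 such fits (adjusted p of up to 0.126, and 0.0801 without FH mouse 34) for Dnaja1 and 1 of 14 such fits (FH mouse 34, adjusted p of up to 0.0518) for Oaz1. In the list of AU-rich element binding proteins, Elavl1 differed by 0.17 ± 0.11 (adjusted p = 0.471) and Elavl2 by -1.13 ± 1.02 (0.611).

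No member was called in the lists for collagen and matrix (30 genes, 22 of them with a negative difference), atrophy and glucocorticoid response (22), excitation-contraction coupling (18), neuromuscular junction (17) and regenerating fibres and satellite cells (10). The fibrillar collagens Col1a1 and Col1a2 differed by -0.01 ± 0.20 (limma adjusted p = 0.984) and -0.09 ± 0.19 (0.8697). The ubiquitin ligases Fbxo32 and Trim63 differed by 0.71 ± 0.24 (adjusted p = 0.0813) and 0.27 ± 0.14 (0.308), and the calcium channels Ryr1 and Cacna1s by 0.23 ± 0.12 (0.307) and 0.11 ± 0.092 (0.581). The acetylcholine receptor subunits Chrna1 and Chrnb1 differed by 0.30 ± 0.18 (adjusted p = 0.395) and 0.00 ± 0.12 (0.998), and the satellite cell factors Pax7 and Myf5 by 0.53 ± 0.19 (0.11997) and 0.14 ± 0.26 (0.832). Over the 22 lists together, 444 distinct genes were tested, of which 26 were called higher and 19 lower, and 7 lists held no called member. Of all genes tested 2.05% were called higher and 1.8% lower, 3.85% together. The share called was 50% for fast fibre, 26.7% for citric acid cycle and 25% for glucose handling genes. It was 19.4% for fatty acid genes, 16.7% for PGC-1 and mitochondrial regulators, 13.9% for nuclear-encoded respiratory chain subunits and 6.25% for glycogen genes.

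Without the mice labelled FH 31 and FH 34, 404 genes were called, 207 higher and 197 lower, and 26 list members were higher and 7 lower. Ppargc1b (0.66, limma adjusted p = 7.91e-05), Lpl (0.54, 0.01505), Hk2 (0.30, 0.00846), Ldhb (0.58, 0.00608), Myh2 (0.82, 0.000139), Mylpf (-0.40, 0.00529) and Vegfa (0.54, 0.00468) were still called. Ppargc1a and Cs were called too, with adjusted p of 0.0491 and 0.0227. Ucp3, Nfil3 and Ndufb2, which were called without FH mouse 34 alone, were not called without both, with adjusted p of 0.0965, 0.122 and 0.0627. The respiratory chain then had 4 subunits called higher and 3 lower, glucose handling 3 higher and 0 lower, and fast fibre genes 2 higher and 3 lower. The circadian clock, immediate early and polyamine lists had 0 members called. Of the groups described next, 39 ribosomal protein genes, 11 mitochondrial tRNAs and 3 snoRNAs were called lower and 11 TEC genes higher.

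**Figure D3:**
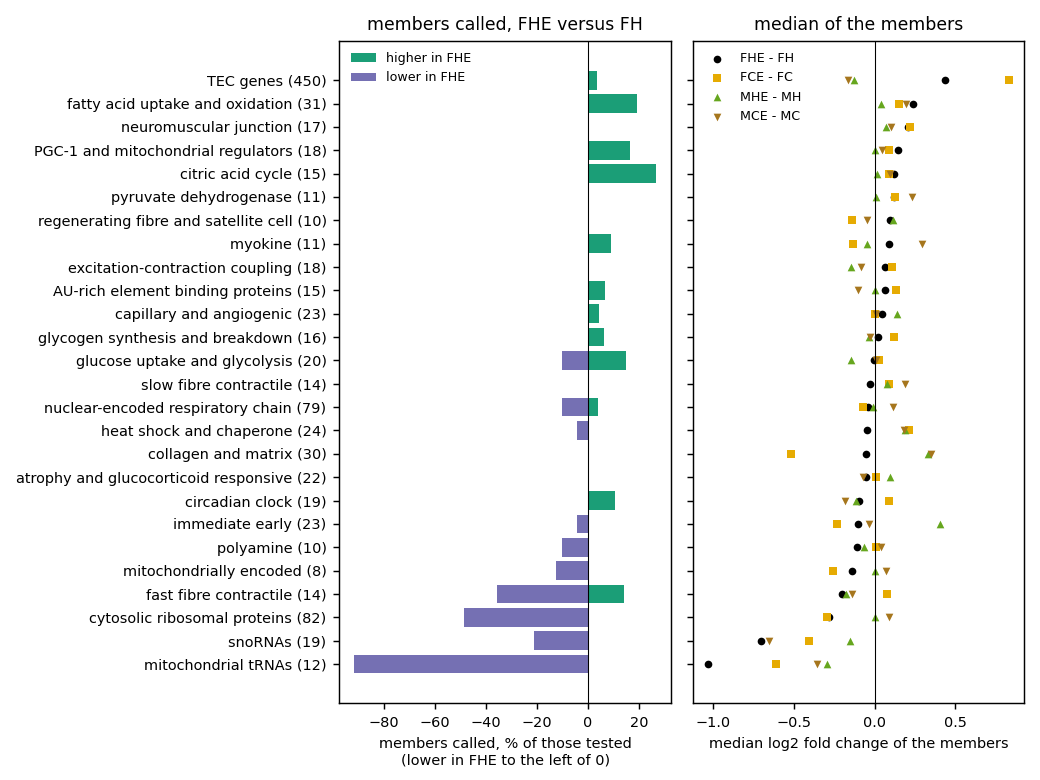
Left, members called higher or lower in FHE as a percent of the members tested, for the pathway lists and 4 groups of genes added after the data were seen; right, the median log2 fold change of the members in each of the 4 wheel comparisons. Mitochondrial tRNAs have the lowest median in FHE minus FH.

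Many of the falls were cytosolic ribosomal protein genes, a group counted after the falls were seen. Of 82 tested, 40 were called lower and none higher, 75 differences were negative, and the median was -0.28. Their summed level was 14376 to 18722 CPM in FH (median 16446) and 12712 to 14197 in FHE (median 13564), without overlap. The medians were 16506 CPM in FC, 13761 in FCE and 12719 to 13835 in the male groups, so those of the locked-wheel females of both genotypes were the highest. Rpl14, of the large subunit, had 186 to 252 CPM in FH and 162 to 180.3 in FHE without overlap (-0.38 ± 0.058, limma adjusted p = 2.82e-05). Rps20, of the small subunit, had 443 to 643 CPM in FH and 346 to 396 in FHE, also without overlap (-0.45 ± 0.070, adjusted p = 2.82e-05). Rpl22, also of the large subunit, differed by -0.38 ± 0.059 (adjusted p = 4.02e-05). These genes have many pseudogene copies, and how reads shared by copies were counted is not given in the sources used here. Without FH mouse 34, 43 were called lower.

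**Figure D4:**
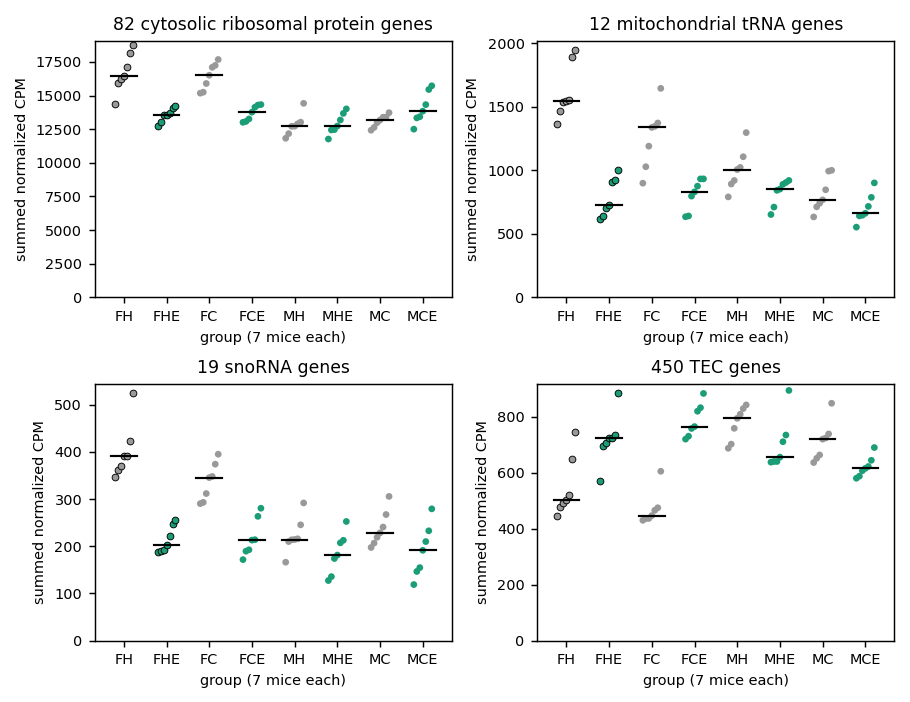
Summed normalized CPM of 4 groups of genes in each mouse of the 8 groups, 7 mice each, with the group median as a bar. The medians of FH and FC are above those of the other groups for ribosomal proteins, mitochondrial tRNAs and snoRNAs, and below them for TEC genes.

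Mitochondrial tRNAs were lower with running. All 12 mitochondrial tRNA genes tested had negative differences, 11 of them called, and the list median was -1.03. Their summed level was 1362 to 1951 CPM in FH (median 1545) and 620.0 to 999.9 in FHE (median 724), without overlap, beside medians of 1338 in FC, 829.9 in FCE and 662 to 1006 in the male groups. The smallest p of all genes belonged to mt-Tm, the tRNA for methionine, with 419 to 564 CPM in FH (median 483) and 214 to 319 in FHE (median 234), a difference of -0.96 ± 0.11 (limma adjusted p = 3.62e-08). The tRNA for proline, mt-Tp, had 439.8 to 735 CPM in FH and 184 to 317 in FHE (-1.17 ± 0.14, adjusted p = 1.20e-07), and that for glutamine, mt-Tq, 83.4 to 156 and 33.4 to 54.9 CPM (-1.15 ± 0.15, 4.95e-07). The genes mt-Tv for valine and mt-Tl1 for leucine differed by -0.97 ± 0.14 (adjusted p = 1.91e-05) and -0.93 ± 0.15 (4.02e-05), and none of these 5 overlapped between the groups. Their sequences are shown because they had the highest counts of the called tRNAs and lie on both strands; they are read from GENCODE M21 transcripts on GRCm38, 5′ to 3′ in the sense of the gene, and capitals mark the first 7 bases and the 7 bases before the last one, which face each other in the acceptor stem.
mt-Tm (chrM:3845-3913, + strand): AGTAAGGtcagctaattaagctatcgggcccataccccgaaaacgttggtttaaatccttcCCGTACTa
mt-Tp (chrM:15356-15422, - strand): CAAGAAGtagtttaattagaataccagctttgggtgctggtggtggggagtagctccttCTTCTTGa
mt-Tq (chrM:3772-3842, - strand): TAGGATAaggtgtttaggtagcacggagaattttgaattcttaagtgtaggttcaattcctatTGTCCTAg
mt-Tv (chrM:1025-1093, + strand): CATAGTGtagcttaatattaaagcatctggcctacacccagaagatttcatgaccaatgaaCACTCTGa
mt-Tl1 (chrM:2676-2750, + strand): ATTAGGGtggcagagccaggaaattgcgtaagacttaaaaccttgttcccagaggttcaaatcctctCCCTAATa
The marked stretches form 7 base pairs in mt-Tp and mt-Tl1, 6 and 1 G-T pair in mt-Tq, and 6 in mt-Tm and mt-Tv. All 12 genes lie within 2 bases of another annotated gene or overlap it, so a read longer than the tRNA may come from an uncut precursor and be counted on either gene. The ribosomal RNAs on either side of mt-Tv differed by -0.23 ± 0.085 for mt-Rnr1 (adjusted p = 0.128) and -0.26 ± 0.081 for mt-Rnr2 (0.0493).

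Among 19 snoRNA genes, guides of RNA modification and processing, 4 were called, all lower, and the list median was -0.71. The share called was 21.1%, beside 3.85% of all genes tested. Snord89 had 148 to 240.3 CPM in FH (median 167) and 60.5 to 98.5 in FHE (median 82.96), a difference of -1.13 ± 0.15 (limma adjusted p = 1.35e-06). Snord13, which acts in maturation of the small ribosomal subunit RNA, had 155 to 217 CPM in FH (median 195) and 81.9 to 138 in FHE (median 116), a difference of -0.81 ± 0.15 (adjusted p = 0.000734). Snord49b was at 1.47 to 2.89 and 0.708 to 1.397 CPM (-1.14 ± 0.29, adjusted p = 0.0132). None of these 3 overlapped between the groups, whereas Gm26225 did (-0.94 ± 0.23, 0.00815). The sequence of Snord89, the called snoRNA with the smallest p, is shown, from the same source, with capitals on the first TGATGA and the last CTGA, the letters of the C and D boxes of this class.
Snord89 (chr1:39548745-39548854, - strand): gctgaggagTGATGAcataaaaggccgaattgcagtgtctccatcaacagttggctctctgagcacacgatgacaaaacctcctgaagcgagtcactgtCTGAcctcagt
Summed over the list, the level was 347 to 524 CPM in FH and 187 to 255 in FHE, beside medians of 345 in FC, 213 in FCE and 181 to 228 in the male groups.

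Provisional loci had mostly positive differences. TEC genes, a GENCODE class of loci that still await experimental proof, numbered 450 among the genes tested. Of these 17 were called, or 3.78%, near the share of all genes, and all were higher. Called or not, 367 differences were positive and the median was 0.43. Each of the 17 lay inside a protein-coding gene on the same strand, and 16 touched none of its exons. Over all TEC genes tested, 345 lay in that way. The called loci had 15 host genes, whose median difference was 0.16, with 3 of the hosts called higher (Ank2, Phkg1 and Rc3h1) and none lower. Each of the 17 differed by more than its host. The loci were chosen by their calls and the hosts were not. This therefore does not show how TEC genes in general compare with their hosts. Gm44694, inside Akap13 (chr7:75707885-75709182), differed by 0.89 ± 0.18 (limma adjusted p = 0.00166), and Akap13 by 0.16 ± 0.077 (0.275). Gm42892, inside Palmd (chr3:116940358-116944330), differed by 1.204 ± 0.26 (adjusted p = 0.00333), and Palmd by 0.02 ± 0.093 (0.9404). Both were named after their values were seen. The summed level of the class overlapped, at 447 to 744 CPM in FH and 571 to 884 in FHE, with FH mice 13 and 34 highest in FH at 744 and 649. It had medians of 446 CPM in FC, 764 in FCE and 615 to 794 in the male groups. Fewer TEC genes were called without FH mouse 14 or FHE mouse 10 (9 each) and without FH mouse 17, 19 or 31 (11 each), and 27 were called without FH mice 13 and 34.

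The direction of change went with exonic length, the union of all annotated exons of a gene, which can exceed the length of its transcripts. Protein-coding genes called higher had a median exonic length of 6637 bases and those called lower 2383, beside 4577.5 for genes not called. The median log2 difference was -0.16 for 212 genes of 501 to 1000 exonic bases, -0.11 for 1342 genes up to 2000, -0.03 for 3815 up to 4000, 0.03 for 5029 up to 8000 and 0.07 for 2464 longer ones. From 501 to 1000 bases 17 genes were called lower and none higher, and in the longest class 15 lower and 94 higher. Leaving out the ribosomal protein genes, 12 were lower from 501 to 1000 bases. From the shortest to the longest of these classes the medians went from -0.18 to 0.10 in FCE minus FC, -0.01 to -0.01 in MHE minus MH and 0.09 to 0.00 in MCE minus MC. The part of length or library preparation in these differences was not tested. This holds for the falls of ribosomal proteins, tRNAs, snoRNAs and short respiratory chain subunits, and for the rises of genes of long exonic length. The labels name no batch.

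**Figure D5:**
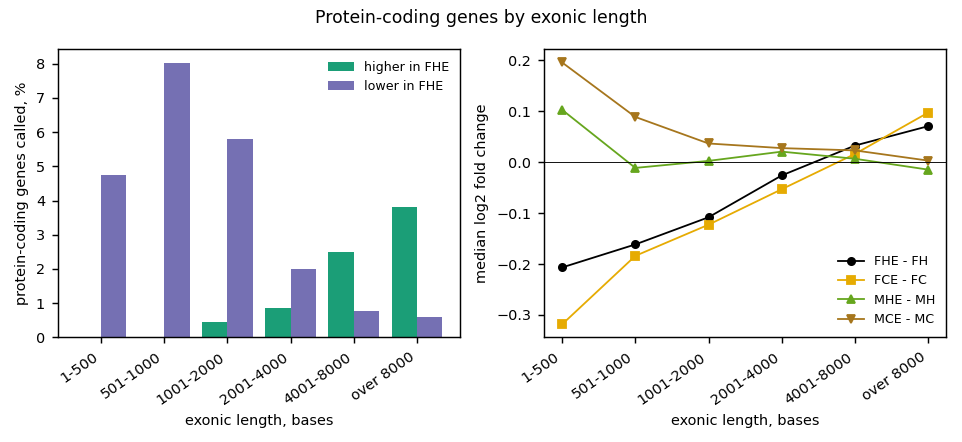
Protein-coding genes in classes of exonic length (bases, union of exons in GENCODE M21): left, percent of genes called higher or lower in FHE; right, median log2 fold change in the 4 wheel comparisons. The share called lower is greatest at 501 to 1000 bases and the share called higher is greatest in the longest class.

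Of the called genes that averaged 10 or more counts, the 15 with the largest rises were Angptl4, the TEC loci 6030400A10Rik, Gm37465, Gm43322, Gm42559, C530043K16Rik and Gm37399, the lincRNAs Gm43598 and 4933406C10Rik, the snRNA Gm25337, and the protein-coding Cntrob, Spsb4, Ube2t, Gm12185 and Ing4. All 15 overlapped between the groups. Ing4, a subunit of chromatin complexes, had 0.308 to 1.96 CPM in FH and 0.984 to 3.602 in FHE, a difference of 1.22 ± 0.36 (limma adjusted p = 0.0376), and its call was lost, with 1 mouse left out at a time, in 8 of 14 such fits (adjusted p of up to 0.0991). Ube2t, a ubiquitin-conjugating enzyme of DNA repair, had medians of 2.39 CPM in FH and 3.89 in FHE; its difference was 1.41 ± 0.40 (adjusted p = 0.0282), and 0.57 (0.249) without FH mouse 34; its call was lost in 3 of 14 such fits (FH mouse 34 and FHE mice 7 and 8, adjusted p of up to 0.249 without FH mouse 34). Without FH mouse 34 the log2 difference of 6030400A10Rik was 0.79 (adjusted p = 0.302) in place of 1.74, and that of Gm42559 0.76 (0.132) in place of 1.39. Spsb4 (adjusted p = 0.157), 4933406C10Rik (0.101), Gm37399 (0.0645), Gm43322 (0.0558) and Gm12185 (0.06) also lost their call without that mouse. With 1 mouse left out at a time, the call was lost in 10 of 14 fits for Gm37465, 10 for C530043K16Rik, 9 for 6030400A10Rik, 9 for Spsb4, 8 for 4933406C10Rik and 8 for Gm37399. It was lost in 4 of 14 such fits (FH mice 17, 19 and 31 and FHE mouse 8, adjusted p of up to 0.0763) for Cntrob, 3 for Gm12185 (FH mice 30 and 34 and FHE mouse 2), 2 for Gm43322 (FH mice 19 and 34) and 1 of 14 such fits (FH mouse 17, adjusted p of up to 0.0872) for Gm25337. The 15 largest falls held mt-Tf, mt-Tl2, mt-Ts2, mt-Tp, mt-Tq and mt-Ta, Snord49b and Snord89, the lincRNA D730045B01Rik, the pseudogene Gm9892, and the protein-coding Wnk3, AI429214, Slc52a3, Zdbf2 and Thbs1. Of these, AI429214 lost its call in 13 of 14 such fits, Zdbf2 in 11, Slc52a3 in 9 and mt-Tf in 3 of 14 such fits (FH mouse 30 and FHE mice 7 and 10, adjusted p of up to 0.0575), and without FH mouse 34 the adjusted p was 0.0633 for AI429214 and 0.105 for Zdbf2. Wnk3, a kinase of ion transport, was at 0.805 to 3.05 CPM in FH and 0 to 1.15 in FHE (-1.86 ± 0.45, adjusted p = 0.00924). Thbs1, thrombospondin-1, a matrix protein that inhibits angiogenesis, had 17.005 to 58.1 CPM in FH (median 22.6) and 9.07 to 19.2 in FHE (median 13.5), a difference of -1.04 ± 0.27 (adjusted p = 0.0148).

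Markers of other cells were checked in the same mice. All 16 liver markers had negative differences with a median of -2.04, none called, and their summed level was 33.8 to 1859 CPM in FH (median 166), with FH mouse 19 highest, and 31.1 to 93.6 in FHE (median 49.3). Of 10 adipocyte markers 8 were negative (median -0.36), none called, with sums of 3179 to 5749.9 CPM in FH and 3485 to 5442 in FHE. Of 8 fibroblast markers 7 were negative, none called, with sums of 2565 to 4360.4 and 2436 to 3329.9 CPM. No marker was called for brown adipocytes, erythroid cells, leukocytes, macrophages, endothelium, Schwann cells, satellite cells, tendon, brain, skin or pancreatic islets, and none of 10 pancreatic acinar markers was among the genes tested. Markers of the muscle fibre itself summed to 85413 to 133450 CPM in FH and 88230.3 to 110940 in FHE. Xist was at 117 to 167 CPM in FH and 132 to 209 in FHE, and Ddx3y, on chromosome Y, at 0.369 and 0.294 CPM at most. The part of other cells in the differences was not tested.

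The wheel effect of HuRm-/- females was then set beside that of control females, which rests on other mice. FCE and FC differed at 1251 genes, and 203 genes were called in both comparisons, all in the same direction. These made up 36.8% of the calls in FHE and FH and 16.2% of those in FCE and FC. Of the 551 genes, 496 (90.02%) had the same sign in control females, beside 62.7% of all genes. The direct test of the difference between the wheel effects of HuRm-/- and control females called 0 of 14321 genes with limma (0%), 1472 having an unadjusted p under 0.05, while edgeR's quasi-likelihood test called 0 and DESeq2 11. The smallest p values were those of Gm37524, Rpl7a-ps5 and Cyp20a1, each with a limma adjusted p of 0.132, and wheel effects of -0.18, -0.63 and 0.31 in HuRm-/- and 2.32, 1.61 and -0.54 in control females. Angptl4 and Ucp3 had wheel effects of -0.07 and 0.03 in control females, and the adjusted p of the difference was 0.367 and 0.3597. Ppargc1b and Myh2 had wheel effects of 0.57 and 0.63 in control females (adjusted p of the difference 0.9198 and 0.929).

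The wheel effect of HuRm-/- males was next. MHE and MH differed at 6 genes, none of them among the 551, of which 300 (54.4%) had the same sign in males beside 50.5% of all genes. The difference between the wheel effects of HuRm-/- females and males was called at 193 genes, or 1.35%, 98 more positive and 95 more negative in females. Ppargc1b had medians of 23.2 CPM in FH, 34.4 in FHE, 32.6 in MH and 29.4 in MHE, and its difference of effects was 0.74 ± 0.13 (SE, limma adjusted p = 0.002597). The locked-wheel males thus had a higher median than the locked-wheel females. The same order of locked-wheel medians held for Phkg1 (104 CPM in FH and 148 in MH; difference of effects 0.58, adjusted p = 0.002597) and Helz, an RNA helicase (30.1 and 43.6; 0.62, 0.002597). It also held for Camk2b, a calcium-dependent kinase (46.7 and 70.2 CPM; 0.70, adjusted p = 0.002597), Sfswap, a splicing regulator (31.1 and 40.1; 0.51, 0.00759), and Amotl1, a junction protein (329 and 543; 0.57, 0.00759). The locus 1810022K09Rik had the opposite order, at 34.4 CPM in FH and 23.1 in MH (-0.70, adjusted p = 0.00273). Gm43598 (2.48, 0.00722) and Frmd8 (-1.13, 0.00759) were also called. Ins1, insulin 1, was called through the males, at 4.13 to 10.4 CPM in MHE and at most 0.212 in FH, FHE and MH. Of the members of the lists, Vegfa (0.57, adjusted p = 0.0373), Ucp3 (1.28, 0.0479), Ndufa2 (-0.27, 0.0444), Klf4 (-0.88, 0.0215) and Ryr1 (0.64, 0.0367) were called, as was Thbs1 (-1.60, 0.0378). Ppargc1a (adjusted p = 0.225), Myh2 (0.248), Myh1 (0.522), Lpl (0.378) and Ldhb (0.522) were not. Of the ribosomal protein genes 20 had a called difference, and their median wheel effects were -0.28 in HuRm-/- females, -0.29 in control females, 0.00 in HuRm-/- males and 0.09 in control males. The count of 193 was 314 without FH mouse 34, 299 without FH mouse 13, and 116 to 124 without FH mouse 14 or 17 or FHE mouse 10 or 2.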

How the data were processed

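RNA was sequenced from gastrocnemius muscle of 56 mice, 7 in each of 8 groups given by the labels, and each column is 1 mouse. The authors deposited a table of whole-number counts per gene for 15539 genes, without normalization. Their processing notes name GRCm38 (mm10), R 4.0.3 and edgeR 3.38.4. The labels give a 3′ tag kit and the published methods a stranded total RNA kit; the aligner, the counter and the use of strand in counting are not given in the sources used here. Where a 3′ tag kit was used, counts do not scale with transcript length, so counts of different genes were not read as their relative abundance.

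Ensembl identifiers were matched to GENCODE M21 for 15503 genes. Counts were scaled with TMM, filtered with filterByExpr (edgeR 4.0.16), and fitted with voom and limma 3.58.1 in R 4.3.3, as 8 group means over all 56 mice. The comparisons were FHE minus FH, and that effect minus FCE minus FC or minus MHE minus MH. P-values are two-sided with Benjamini-Hochberg adjustment over the 14321 genes tested. SE is the moderated standard error. Alternatives were edgeR's quasi-likelihood test, DESeq2 1.42.0, limma trend, other scalings and filters, quality weights, fewer groups in the fit, and mice left out. The scripts were tested on simulated data.

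Named genes were, of called genes averaging 10 or more counts, the 15 that rose most and the 15 that fell most, then up to 10 genes called in each difference of wheel effects (where none was called, the 3 with the smallest p), in each list up to 6 called members and the first 2 as written, and Elavl1, Myl1, Xist and Ddx3y. The members and lists were chosen with earlier results of these data known. The ribosomal protein, mitochondrial tRNA, snoRNA and TEC groups, the loss of FH mouse 34 in the lists and the joint losses of FH mice 13 and 34 and of FH mice 31 and 34 were added after the data were seen. Tnnt3, the 3 ribosomal protein genes, mt-Tm, mt-Tv, mt-Tl1, the ribosomal RNAs, Snord13, Gm26225, Akap13 and Palmd were named after their values were seen. Some genes that this rule names are not reported here.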

Additional observations from a re-analysis of the deposited data

Results flagged for a closer look

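Single mice stood far from the other 6 of their group, by a Dixon test at the 95% level, for 25 of 246 values tested, where chance alone gives about 1 in 20. FH mouse 13 was the highest of its group for Cntrob (1.32 CPM), Gm42559 (3.55 CPM), Gm37399 (1.90 CPM) and Phkg1 (138 CPM). FH mouse 14 was the highest of its group for 4933406C10Rik (2.58 CPM) and mt-Ts2 (10.2 CPM). FH mouse 19 was the highest of its group for the summed liver markers (1859 CPM). FH mouse 30 was the highest of its group for Ins1 (0.0805 CPM). FH mouse 31 was the highest of its group for Hspa1a (19.8 CPM). FH mouse 34 was the highest of its group for Gm37465 (1.35 CPM), Snord89 (240.3 CPM), Myh2 (1914 CPM) and the summed snoRNAs (524 CPM). FH mouse 34 was the lowest of its group for Gabpa (5.41 CPM) and Cs (86.6 CPM). FHE mouse 10 was the lowest of its group for Zdbf2 (0.403 CPM) and Gbe1 (55.5 CPM). FHE mouse 21 was the highest of its group for Myh1 (2697 CPM). FHE mouse 21 was the lowest of its group for Gm37399 (0.765 CPM). FHE mouse 22 was the highest of its group for Mylpf (11902 CPM). FHE mouse 3 was the highest of its group for Ins1 (0.212 CPM). FHE mouse 8 was the highest of its group for Cntrob (2.35 CPM), Cyp20a1 (9.78 CPM), Fosb (4.63 CPM) and Chrnb1 (19.6 CPM). Ins1 was at or near 0 in all 14 mice.

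The wheel effect differed between HuRm-/- females and males, by the limma test of the difference itself, at 22 of the named genes. Up to 10 genes were named because this same test called them. Others were named by FHE minus FH, which is part of the difference. The 22 therefore cannot be read as a result about the named genes. Over all 14321 genes tested, 193 were called (1.35%). The difference of log2 effects, females minus males, was positive for 6030400A10Rik (2.38), Gm43598 (2.48), Gm43322 (1.96), Gm37399 (1.71), Phkg1 (0.58), Helz (0.62), Ppargc1b (0.74), Camk2b (0.70), Sfswap (0.51), Amotl1 (0.57), Ucp3 (1.28), Vegfa (0.57) and Ryr1 (0.64). It was negative for mt-Ts2 (-1.05), mt-Tp (-0.90), mt-Tq (-0.89), Thbs1 (-1.60), 1810022K09Rik (-0.70), Frmd8 (-1.13), Ndufa2 (-0.27) and Klf4 (-0.88). For Ins1 the fitted difference was -6.01, a value that depends on how 0 counts are handled, since FH, FHE and MH were at or near 0.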

How the results depend on the processing

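The count of 551 called genes ran from 398 to 663 when 1 of the 14 mice was left out, was 119 with a 1.5-fold minimum added and 161 when only the 14 FH and FHE mice were fitted, which leaves fewer samples to estimate the spread. Members called in the pathway lists numbered 45, 31 to 53 with 1 mouse left out and 15 in the fit of the 14 mice. Ribosomal protein genes called lower ran from 37 to 51, mitochondrial tRNAs from 9 to 12 and snoRNAs from 4 to 6 with 1 mouse left out, all lower. The 17 TEC genes became 9 to 25 with 1 mouse left out, 8 with at least 10 counts required in every mouse, 5 in the fit of the 14 mice, 10 in the fit of the 28 females, 10 without FH mice 19 and 30, 27 without FH mice 13 and 34 and 11 without FH mice 31 and 34. The difference from control females had 0 called genes with any 1 mouse left out, 11 with DESeq2 and 2 without FH mice 19 and 30. The difference from HuRm-/- males, called at 193 genes, ran from 116 to 314 with 1 mouse left out and was 103 with a 1.5-fold minimum, 331 with quality weights, 541 without FH mice 13 and 34 and 128 without FH mice 19 and 30; it cannot be fitted without the males. The cause of these shifts was not tested.

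Of 117 named genes 73 were called, 20 of them under each alternative in which the gene was tested and 35 whichever mouse was left out. D730045B01Rik, among the 20, was tested in 27 of 28 alternatives. Without FH mouse 34, 25 lost their call. No called gene changed direction. Genes not called and close to 0 did so with 1 mouse left out, and their log2 differences then ranged as Chrnb1 -0.10 to 0.084, Col1a1 -0.11 to 0.064, Ddx3y -0.12 to 0.59, Gbe1 -0.12 to 0.030, Hspa1a -0.25 to 0.044, Ins1 -0.035 to 0.51, Myf5 -0.0367 to 0.40, Myh4 -0.053 to 0.13, Myl2 -0.099 to 0.073, Ndufa1 -0.12 to 0.22, Slc2a4 -0.043 to 0.029. The log2 difference also changed sign to 0.0011 for Chrnb1 and -0.0225 for Myh4 with DESeq2, 0.0036 for Chrnb1 and -0.021 for Myh4 with edgeR's quasi-likelihood test, 0.0014 for Chrnb1 with no filter on low counts, -0.11 for Ddx3y and -0.20 for Ndufa1 and 0.0016 for Slc2a4 without FH mice 13 and 34, -0.0193 for Myf5 and -0.049 for Myh4 and -0.015 for Myh7 without FH mice 19 and 30, -0.0114 for Clock and 0.0919 for Gbe1 and 0.0819 for Hspa1a and -0.0757 for Myf5 and -0.111 for Ndufa1 without FH mice 31 and 34, -0.0821 for Ndufa1 with quality weights.

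No paired analysis was possible because FH and FHE share no replicate number. Depth limits genes at few counts, such as Ins1 and Ddx3y, for which a fitted difference is no bound.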

Other observations

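Medians of the other classes of short RNA and of sense intronic RNAs went in either direction. Of all genes tested, 3.85% were called. Of 12 snRNA genes 2 were called, both higher, a share above that of all genes but from 2 members. Their median log2 difference was 0.91 in FHE minus FH, 1.05 in FCE minus FC, -0.17 in MHE minus MH and -0.07 in MCE minus MC. Of 61 sense intronic RNAs, which lie in introns of other genes, 2 were called, both higher, near the share of all genes. Their medians were 0.53, 0.76, -0.20 and -0.05 in the same order. None was called of 10 miRNA genes, with medians of -0.21, -0.11, -0.28 and -0.05, of 6 in the class misc_RNA, with medians of -0.78, -0.29, 0.08 and 0.06, or of 3 scaRNA genes, with medians of -0.34, 0.10, 0.04 and -0.19.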
